A study of Mus musculus with 4 samples.

Results

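The Hox cluster genes were described in 4 mouse embryonic stem cell samples by every array probe whose target name is HOXA, HOXB, HOXC or HOXD followed by a number from 1 to 13 and nothing else. On the Illumina MouseWG-6 v2 bead array 55 of 45281 probes met this rule. They cover 39 of the 31465 genes and target names measured, in 4 clusters, with over 1 probe for 12 of the Hox genes. Both 2i-derived samples, 2i-RFP+ and 2i-RFP-, are of strain C57/B6 at passage 5 and were measured on 2 arrays each (A and B). They were compared with the lines AFF204#21 (C57/B6, passage 11) and R1 (129, passage 26), measured on 1 array each, which carry no 2i label and are called standard-derived here. 2i is a pair of kinase inhibitors in which stem cells can be derived, and for all 4 samples the labels give ordinary culture on embryonic fibroblast feeders. What RFP reports is not stated. A common stem, 2imES#1, in the array names leaves it unsettled whether 2i-RFP+ and 2i-RFP- are separate lines. Derivation and passage cannot be told apart in this design.

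Hox genes encode homeodomain transcription factors that give cells their position along the head-to-tail axis of the embryo. In mammals they lie in 4 clusters, and genes with the same number in different clusters, called paralogues, are closely related. Low numbers act towards the hindbrain and high numbers towards the trunk, the tail and the ends of the limbs. In undifferentiated stem cells the clusters are a classical example of genes held silent by Polycomb complexes, whereas fibroblasts, such as those used as feeders, keep the Hox pattern of the body site they came from.

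To show what lies before these genes, the 250 bases ahead of the transcription start are given for 4 of them from RefSeq, in the C57BL/6J reference (GRCm38.p6), 5′ to 3′ on the gene's strand, with CpG dinucleotides in capitals. Hoxa5 and Hoxa7 were chosen as genes that ran highest in R1, Hoxd8 as one with no overlap between the groups, and Hoxd13 as one detected in no sample. They lie at chr6:52204588-52204837 and chr6:52218574-52218823 on the minus strand, and at chr2:74704365-74704614 and chr2:74667975-74668224 on the plus strand.
Hoxa5: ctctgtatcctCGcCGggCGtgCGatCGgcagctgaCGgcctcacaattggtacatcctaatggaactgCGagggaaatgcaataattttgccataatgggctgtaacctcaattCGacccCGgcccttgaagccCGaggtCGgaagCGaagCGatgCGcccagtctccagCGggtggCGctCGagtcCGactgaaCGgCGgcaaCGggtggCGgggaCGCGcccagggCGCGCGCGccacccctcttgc
Hoxa7: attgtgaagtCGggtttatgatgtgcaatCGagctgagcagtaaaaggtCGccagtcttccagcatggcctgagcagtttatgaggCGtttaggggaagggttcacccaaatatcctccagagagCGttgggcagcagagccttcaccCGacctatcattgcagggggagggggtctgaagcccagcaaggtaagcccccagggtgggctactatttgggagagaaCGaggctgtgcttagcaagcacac
Hoxd8: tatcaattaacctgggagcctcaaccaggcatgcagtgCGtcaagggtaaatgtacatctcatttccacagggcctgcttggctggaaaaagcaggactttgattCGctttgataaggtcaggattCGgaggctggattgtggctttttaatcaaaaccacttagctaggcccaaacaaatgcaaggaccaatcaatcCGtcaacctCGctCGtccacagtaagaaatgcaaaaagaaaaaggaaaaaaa
Hoxd13: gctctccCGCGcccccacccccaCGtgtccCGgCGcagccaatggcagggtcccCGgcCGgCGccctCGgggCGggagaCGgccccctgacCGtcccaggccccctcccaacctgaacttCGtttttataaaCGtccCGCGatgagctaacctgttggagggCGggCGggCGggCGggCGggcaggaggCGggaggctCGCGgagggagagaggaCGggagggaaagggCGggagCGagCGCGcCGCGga

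These windows hold 28, 7, 6 and 31 CpG dinucleotides, so the undetected Hoxd13 has the most of the 4 and the detected Hoxd8 the fewest. The promoter table had 24 windows for 22 of the 39 genes, with a median of 12.5 CpG per window (range 2 to 35) against 6 over all 32851 windows. The median was 17 in the 6 windows of genes detected in all 4 samples and 12 in the 17 windows of genes detected in none. The letters TTTATG, a core bound by CDX factors, were searched on both strands and occurred in 5 of the 24 windows (20.8%), against 10.8% of all windows. They were windows of Hoxa7, detected in all samples, and of Hoxb8, Hoxd3, Hoxd4 and Hoxd11, detected in none. TGATTNAT, bound by pairs of PBX and HOX proteins, occurred in 2 of the 24 (8.33%) against 2.82%. A match of letters is a description and not a binding site.

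Most Hox genes were not detected in any sample. A probe was counted as detected where its deposited detection score, which rises from 0 to 1 with the signal over background, averaged at least 0.95 over a sample's arrays. By this measure 15 of the 39 genes were detected in all 4 samples, 3 in some of them and 21 in none. Over all genes and target names 15754 of 31465 were detected in at least 1 sample, against 18 of the 39 Hox genes. Counted by gene, the Hox share was thus only slightly below the background. Between 17 and 19 of the 55 Hox probes were detected per sample (18 in 2i-RFP+, 19 in 2i-RFP-, 19 in AFF204#21 and 17 in R1). As shares this is 30.9% to 34.5% of Hox probes, against 42.7% to 43.9% of all probes in the same samples. The 31 probes of the 21 undetected genes had intensities of 33.3 to 75.5 on the linear scale, and 1 array alone reached 0.95 for any of them. It was array B of 2i-RFP+ for a Hoxd9 probe, at a score of 0.966 and an intensity of 75.5, against 55.1 on array A.

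The detected genes were spread over all clusters and gathered in the middle paralogue numbers. HoxA on chromosome 6 had 4 of 11 genes detected throughout (Hoxa4, Hoxa5, Hoxa7 and Hoxa13), and HoxB on chromosome 11 had 6 of 10 (Hoxb2, Hoxb4, Hoxb5, Hoxb6, Hoxb7 and Hoxb9). HoxC on chromosome 15 had 3 of 9 (Hoxc6, Hoxc9 and Hoxc10), and HoxD on chromosome 2 had 2 of 9 (Hoxd8 and Hoxd10). Of the 8 genes with numbers 1 to 3, Hoxb2 was the member found in all samples. Of the 15 genes numbered 4 to 8 there were 9, and of the 16 numbered 9 to 13 there were 5. Hoxa2 and Hoxc13 were found in all samples but R1. The genes undetected throughout included 5 of HoxA, and Hoxb1, Hoxb3, Hoxb8 and Hoxb13 of HoxB, Hoxc4, Hoxc5, Hoxc8, Hoxc11 and Hoxc12 of HoxC, and Hoxd1, Hoxd3, Hoxd4, Hoxd9, Hoxd11, Hoxd12 and Hoxd13 of HoxD. Both paralogues of number 7 were detected in every sample, while none of number 3, 11 or 12 was detected in any. Detection depends on each probe's own binding, so an undetected gene is one without signal over background and not one shown to be silent.

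**Figure D1:**
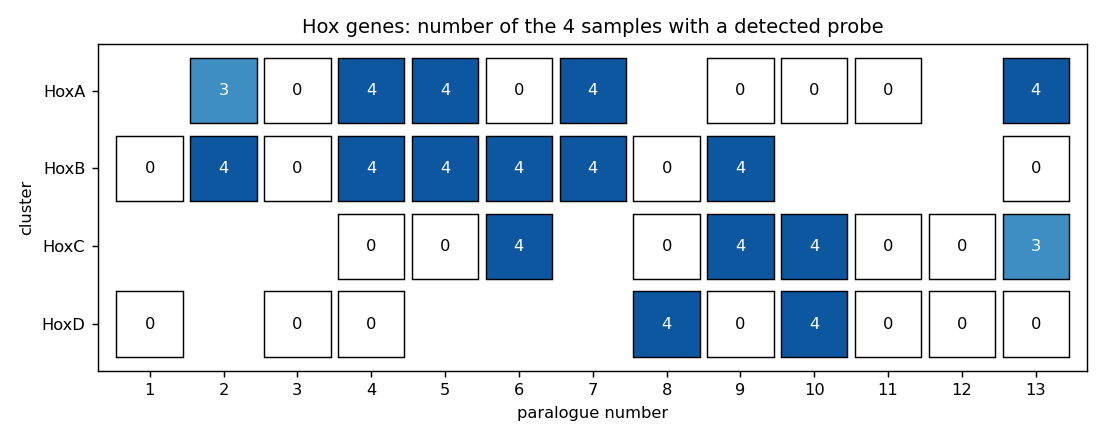
Grid of Hox genes, with clusters as rows and paralogue numbers as columns. Each box gives the number of the 4 samples in which a probe of the gene was detected, which is 4 for 15 genes and 0 for 21. Positions without a box have no value shown.

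Probes of the same gene did not always behave alike. For Hoxa13, which patterns the digits and the hindgut, 1 of 3 probes was detected in all samples, another in 2i-RFP- alone and the third in none. Hoxa2 and Hoxc10 each had a probe detected in some or all samples and another detected in none. Hoxb7, a trunk gene, was the member with 2 probes detected throughout. The 4 probes of Hoxb3 were undetected in every sample.

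For the comparison of groups, log2 values were taken after background correction and quantile normalization, and limma was fitted to the 14572 genes that at least 2 samples detected. No Hox gene was called between the 2i-derived samples and the standard-derived lines. Few of all genes were called either, so this alone does not set the Hox genes apart. Of the 39 Hox genes 18 passed the detection filter, and 0 of these 18 were called at an adjusted p under 0.05, where the background was 0.165% of all genes tested (24 of 14572). At an adjusted p under 0.10 it was again 0 of 18, against a background of 4.25%. At an unadjusted p under 0.05 there was 1 of 18, against 20.9% of all genes tested. Of the 18 genes, 1 passed the filter only through the group where it was higher, so its direction was built into its selection. The median log2 difference of the 18 genes, 2i-derived minus standard-derived, was -0.12, against -0.02 over all genes tested, and 14 lay below 0. The median moved to -0.295 without AFF204#21, -0.028 without R1, -0.228 without 2i-RFP+ and -0.038 without 2i-RFP-. Nothing states that the samples of a group were grown separately, so these p-values weigh the spread between these samples only.

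The 95% intervals count 2i-RFP+ and 2i-RFP- as separate samples, which the labels leave unsettled, so they may be too narrow. They stayed within 2-fold either way for 17 of the 18 genes, and the exception was Hoxb7, from -1.11 to 0.41 log2 units. Several tested genes, such as Hoxa4 and Hoxc10, lay near the lowest signal detected on the arrays (log2 5.17 to 5.26). A fall in such a gene could hardly be measured. The groups did not overlap for 4 genes, among them Hoxa4, Hoxa7 and Hoxd8, a share well under the background of 55.7% of all genes tested. Among the genes described here the differences ran from -0.35 for Hoxb7 to 0.08 for Hoxb9.

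**Figure D2:**
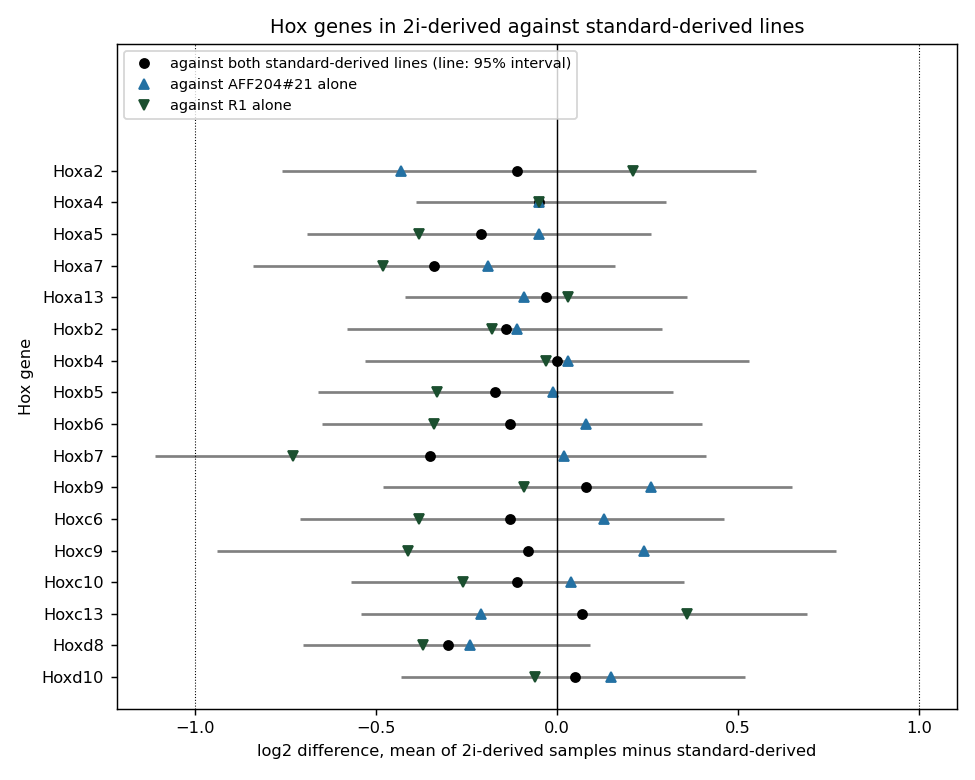
Log2 difference of 17 tested Hox genes, mean of the 2i-derived samples minus the standard-derived lines, on the horizontal axis. Circles stand for both standard-derived lines with the 95% interval from limma, and triangles for AFF204#21 (pointing up) or R1 (pointing down) alone. Most differences against R1 lie left of 0, those against AFF204#21 on both sides, and dotted lines mark a 2-fold change.

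Among the anterior genes, Hoxa2, which gives the second pharyngeal arch its identity, was detected in AFF204#21 and not in R1. Its detected probe read 65.4 and 79.2 in 2i-RFP+, 76.1 and 66.5 in 2i-RFP-, 82.3 in AFF204#21 and 64.1 in R1, where it was undetected. Each 2i-derived sample had 1 array above and 1 below a score of 0.95. Hoxb2, the hindbrain paralogue, had log2 values of 6.87 in 2i-RFP+, 6.63 in 2i-RFP-, 6.86 in AFF204#21 and 6.93 in R1. Its groups overlapped, and 3 of the 4 samples lay within 0.07 log2 units.

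In the middle numbers, the trunk genes Hoxa5 and Hoxa7 were highest in R1 and lowest in 2i-RFP-. Hoxa5, needed for lung and neck development, read 296.3 and 349.0 in 2i-RFP+, 298.3 and 286.7 in 2i-RFP-, 311.9 in AFF204#21 and 368.8 in R1. In normalized log2 values array B of 2i-RFP+ (8.23) lay between array A (8.08) and R1 (8.46). Hoxa7, which helps to shape the vertebrae, read 257.7 and 254.8, then 225.4 and 216.7, then 261.4 and 302.3 in the same order. For Hoxa7 both 2i-derived samples lay below both standard-derived lines, although array A of 2i-RFP+ (log2 7.86) was level with AFF204#21 (7.85). Its log2 difference was -0.34 ± 0.19 (SE, limma adjusted p = 0.377). Hoxa5 had -0.21 ± 0.18 (limma adjusted p = 0.543), with groups that overlapped. Hoxa4 was nearly level, with intensities of 77.0 to 80.1 over all 6 arrays and a log2 difference of -0.05.

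Hoxb7 varied most between the standard-derived lines. Its tested probe read 270.0 and 389.4 in 2i-RFP+, 315.3 and 281.6 in 2i-RFP-, 301.7 in AFF204#21 and 470.4 in R1. R1 was above every other array, and AFF204#21 lay inside the range of the 2i-derived samples. R1 was 1.68-fold above AFF204#21, and the log2 difference of the 2i-derived samples was 0.02 against AFF204#21 and -0.73 against R1. The second probe kept R1 on top, at 260.3 against 167.4 in AFF204#21, 218.9 and 230.6 in 2i-RFP+ and 195.0 and 156.6 in 2i-RFP-.

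The other HoxB genes moved less. Hoxb5 had log2 values of 6.77, 6.63, 6.71 and 7.03 in 2i-RFP+, 2i-RFP-, AFF204#21 and R1, and Hoxb6 had 5.75, 5.59, 5.59 and 6.00. R1 was highest for both, with 2i-RFP+ next. Hoxb4, known for expanding blood stem cells, differed more between the 2i-derived samples (6.40 and 5.97) than between AFF204#21 (6.16) and R1 (6.21). Its fitted difference was 0.00, with an interval from -0.53 to 0.53. Hoxb9, a thoracic gene, had 5.74, 5.37, 5.29 and 5.65, so that 2i-RFP+ and R1 stood above the other samples. All were near the edge of detection. Arrays A and B of 2i-RFP- read 5.17 and 5.58, array A level with the lowest signal detected on it and array B near R1.

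Hoxc6 and Hoxc9, thoracic genes of the HoxC cluster, likewise had R1 and 2i-RFP+ above the other samples, here with R1 first. Hoxc6 read 704.0 and 820.3 in 2i-RFP+, 661.8 and 623.0 in 2i-RFP-, 634.9 in AFF204#21 and 877.9 in R1, with standard errors over the beads of 16.5 to 27.1. Hoxc9, which sets the identity of thoracic motor neurons, read 154.7 and 193.2, then 140.3 and 118.7, then 126.9 and 176.1. In both genes each array of 2i-RFP+ exceeded each array of 2i-RFP- and AFF204#21. Hoxc9 was 1.58-fold and Hoxc6 1.42-fold higher in R1 than in AFF204#21. Between the groups the log2 differences were -0.13 ± 0.22 for Hoxc6 and -0.08 ± 0.32 for Hoxc9 (SE, limma adjusted p = 0.776 and 0.904).

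Of the HoxD genes and those of the highest numbers, Hoxd10 also had 2i-RFP+ and R1 above the other samples, at log2 values of 6.59, 6.32, 6.31 and 6.51 in 2i-RFP+, 2i-RFP-, AFF204#21 and R1. Hoxd8 was 6.20 and 6.12 in the 2i-derived samples against 6.40 in AFF204#21 and 6.52 in R1, and its log2 difference was -0.30 ± 0.15 (SE, limma adjusted p = 0.323). Hoxd10 and Hoxc10, which act in the lumbar spinal cord and hindlimb, had differences of 0.05 and -0.11. Hoxa13 read 108.7 and 134.9 in 2i-RFP+, 119.2 and 124.9 in 2i-RFP-, 123.4 in AFF204#21 and 113.5 in R1. The repeat arrays of 2i-RFP+ spanned all the other samples of Hoxa13. Hoxc13, a regulator of hair keratins, was undetected in R1 (62.3) and read 72.3 to 78.7 on the other 5 arrays.

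**Figure D3:**
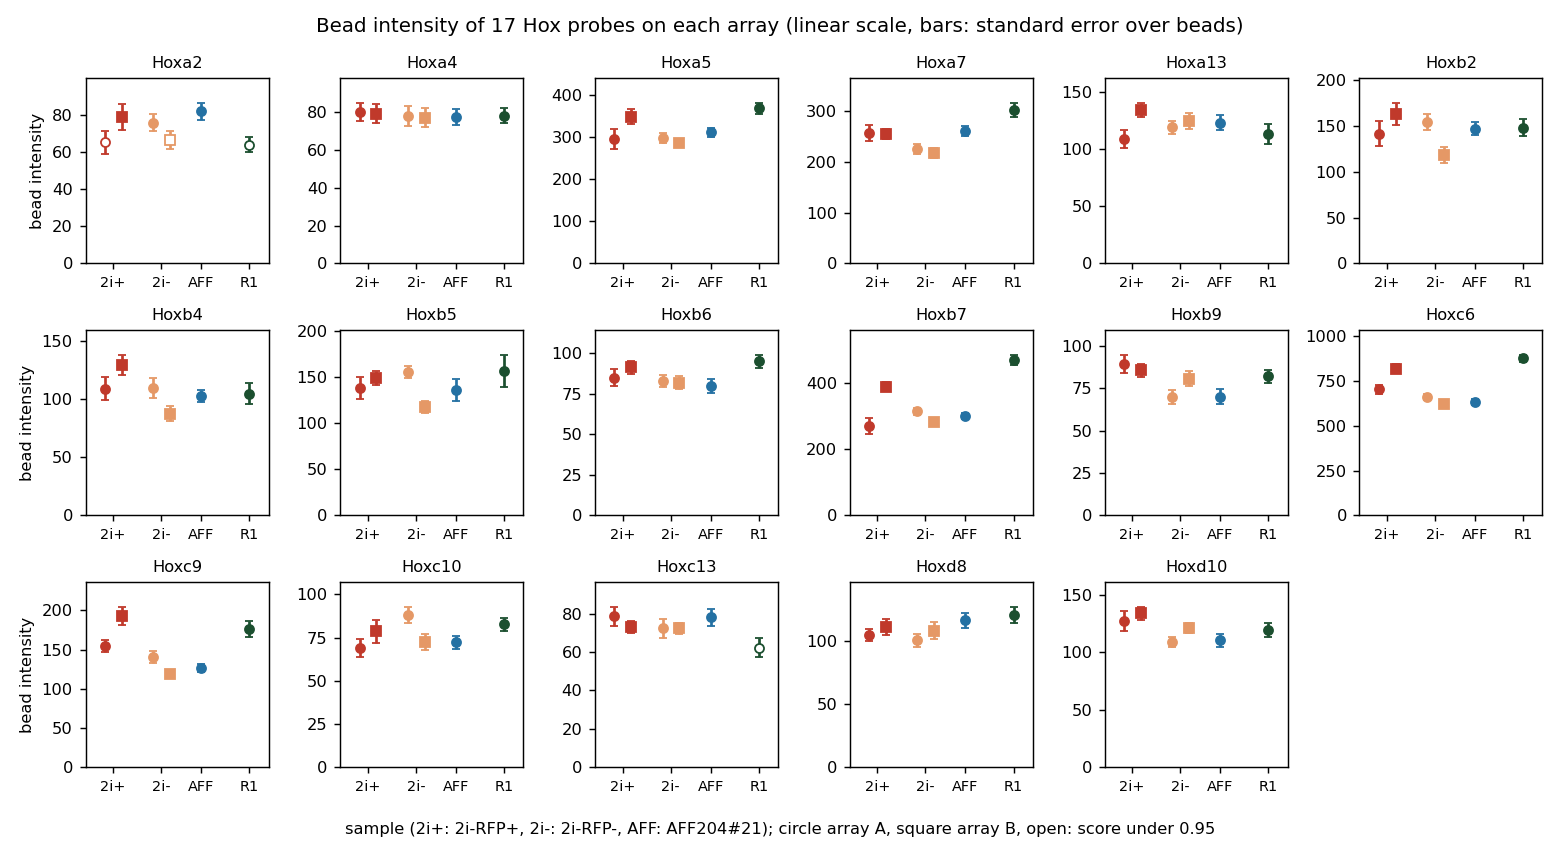
Bead intensity on a linear scale (vertical axes, starting at 0) of the probe tested for each of 17 Hox genes, by sample and array (horizontal axes). Circles are arrays A, squares arrays B, bars the standard error over the beads of the probe, and open symbols arrays with a score under 0.95. R1 is the highest sample for 11 of these genes by mean log2 value.

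The clearest order among the Hox genes lay within the groups. R1 was above AFF204#21 for 14 of the 18 genes, against 52.8% of all genes tested, and was the highest of the 4 samples for 11 (61.1%), against 35.5%. The median log2 difference of AFF204#21 minus R1 was -0.25, against -0.02 over all genes tested. With 1 sample on each side there is no test, and 0 of 18 Hox genes were 2-fold apart, against a background of 6.29% of 15288 genes. The median absolute gap was 0.32 log2 units for the Hox genes, against 0.26 for all these genes. The widest gaps among genes detected in both lines were those of Hoxb7 (-0.75) and Hoxc9 (-0.66) towards R1. Hoxa2 and Hoxc13, not well above background in R1, measured at least 1.40-fold and 1.28-fold higher in AFF204#21, set against the lowest signal detected on the array of R1. These bounds rest on normalized values of 1 array each and make no allowance for the spread between arrays. The other Hoxa2 probe, undetected in both lines, had intensities of 57.6 in AFF204#21 and 59 in R1.

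2i-RFP+ was above 2i-RFP- for 16 of the same 18 genes, with a median log2 difference of 0.15, against 50.8% and 0.00 over all genes tested. Hoxc10 (-0.19) was among the exceptions. None of the 17 Hox genes detected in at least 1 of both samples was 2-fold apart, against a background of 0.0274% of 14583 genes, and the widest gap was 0.57 for Hoxc9 (1.48-fold). The 4 pairs of arrays gave 0.33 to 0.81 for Hoxc9 and 0.19 to 0.34 for Hoxc6. Arrays A and B differed by a root mean square of 0.217 (2i-RFP+) and 0.258 (2i-RFP-) over the 18 genes, which compares single arrays, while the means of the samples differed by 0.245. Over all genes the repeat arrays differed by 0.219 and 0.191 and the sample means by 0.164.

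Markers of feeder fibroblasts moved in the same order as the Hox genes. All 4 samples were grown on feeders, and 24 to 26 of the 27 markers were detected per sample, Postn being the marker found in none. Of the 25 tested markers R1 was highest for 21 and 2i-RFP+ was above 2i-RFP- for 23. Other lists described below shared part of this. R1 was highest for 6 of 10 tested posterior axis and WNT-FGF genes, and 2i-RFP+ was above 2i-RFP- for 7. For 8 trithorax genes and H3K27 demethylases these counts were 5 and 2. Relative to each gene's own mean over the 4 samples, the median feeder marker stood at 0.01 in 2i-RFP+, -0.18 in 2i-RFP-, -0.08 in AFF204#21 and 0.29 in R1. The median Hox gene stood at 0.00, -0.17, -0.04 and 0.17. The summed intensity of the 27 markers was 43427 and 38076 in the 2i-derived samples and 40216 and 48511 in AFF204#21 and R1. That of the 39 Hox genes was 4262 and 3891, then 3973 and 4577. Both sums have R1 first, 2i-RFP+ next, then AFF204#21 and last 2i-RFP-. They add unnormalized intensities, and the Hox sum includes the 21 undetected genes. The sum of 8 stem cell markers also had R1 first (96788) and 2i-RFP+ next (96159). There 2i-RFP- (93369) stood above AFF204#21 (89615). The part of feeder RNA in the Hox signal was not tested, and in bulk samples more cells of a type and more RNA per cell cannot be told apart.

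**Figure D4:**
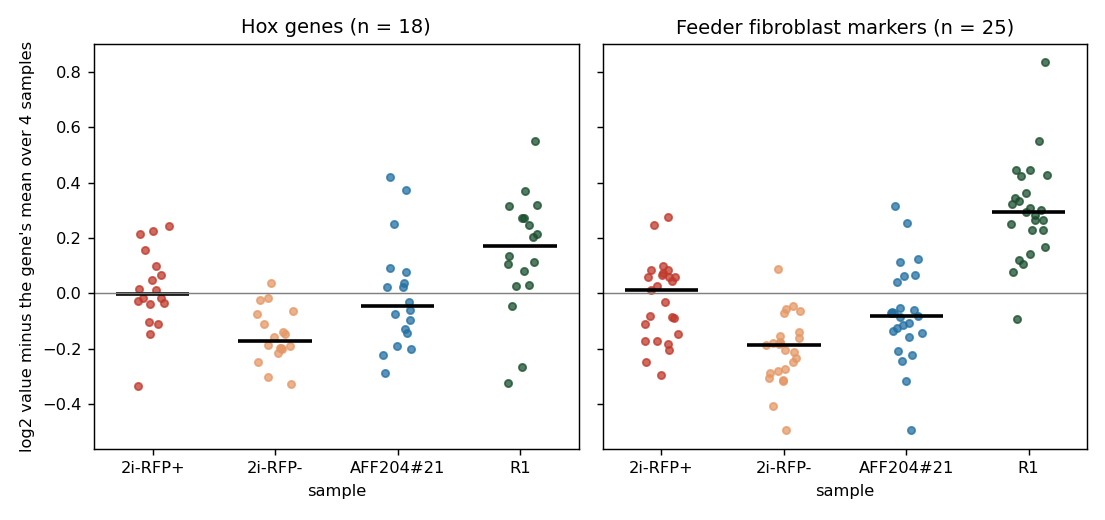
Log2 value of each gene minus its own mean over the 4 samples (vertical axis) for the 18 tested Hox genes and the 25 tested feeder fibroblast markers, by sample (horizontal axis). Points are genes and bars their medians, which lie between -0.17 and 0.17 for Hox genes and between -0.18 and 0.29 for the markers, highest in R1 and lowest in 2i-RFP- in both panels.

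No feeder marker was called between the groups. The 25 tested markers had a median log2 difference of -0.17, with 3 above 0. Measured from AFF204#21 only, the median of these markers was 0.01, while measured from R1 only it was -0.38. Those of smallest p were Tagln, an actin-binding protein of contractile cells, the collagen gene Col1a1, and Acta2, smooth muscle actin. Their log2 differences were -0.68, -0.46 and -0.49 (limma adjusted p = 0.143, 0.175 and 0.229). Col3a1, another collagen, was 7.43, 7.41 and 7.37 in 2i-RFP+, 2i-RFP- and AFF204#21 and 8.51 in R1. All 8 stem cell markers were detected in every sample. R1 was highest for 4 of them and above AFF204#21 for 6, and 2i-RFP+ was above 2i-RFP- for 2. They had differences of 0.03 for Pou5f1, 0.37 for Nanog and 0.26 for Sox2, while Tdgf1 had -0.47 (limma adjusted p = 0.855, 0.173, 0.294 and 0.366). Zfp42 had -1.49 and rested on R1, at 12.83 against 9.29 to 9.67 in the other samples.

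Markers of differentiated tissues, some of which express Hox genes, were mostly at background. Of the endoderm markers 3 of 7 were tested and none called, with differences of 1.09 for Sox7, -0.62 for Gata6 and -0.31 for Dab2. Eomes was the tested member among 5 mesoderm markers (0.60) and Nes among 5 neural ones (0.47), and Mesp1, Mixl1, Hand1, Sox1 and Pax6 were undetected in all samples.

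Some members of the other lists had wider differences than any Hox gene, but they are mostly named by smallest p, which favours wide differences. Cdx1 and Cdx2, ParaHox factors that activate trunk Hox genes in the embryo, had log2 differences of -1.43 and -1.64 (limma adjusted p = 0.0671 and 0.0954). Cdx1 read 5.63 and 5.67 in the 2i-derived samples, 7.26 in AFF204#21 and 6.90 in R1, and Cdx2 read 5.79, 5.34, 7.53 and 6.88. Both standard-derived lines were above both 2i-derived samples for each gene, but the groups did not overlap for 55.7% of all genes tested. The other 4 ParaHox genes were undetected throughout. In the posterior axis and WNT-FGF list, 1 of 10 tested members was called, against a background of 0.165% of all genes tested. This was Gbx2, a homeobox gene, at -3.41 (limma adjusted p = 0.0472). The call was near the threshold, at limma adjusted p = 0.0442 to 0.0526 under 7 other settings that kept all 4 samples, and it was lost without background correction, with median scaling, with detection in at least 1 sample and with a robust trend. It was also lost with both 2i-derived samples counted as 1 or either left out (0.807 to 0.832), while the difference stayed between -3.43 and -3.34 in all of these. Fgf17 read 8.29 and 8.52 in the 2i-derived samples, 10.06 in AFF204#21 and 10.75 in R1, and Wnt3a, above background on a single 2i-derived array, had a difference of -1.37 (limma adjusted p = 0.0671 for both). The median of the 10 was -0.70, with 3 above 0.

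Of the retinoic acid pathway, 10 of 17 genes on the array were tested and none was called. Crabp1, a retinoic acid carrier, had -1.29 (limma adjusted p = 0.161). Cyp26a1, the enzyme that breaks retinoic acid down, was not well above background on any array of the 2i-derived samples and passed the filter only through the standard-derived lines. It measured at least 1.25-fold higher in those lines, with no allowance for spread (measured means of 4.69 and 5.53, limma adjusted p = 0.0863). The bound sets their mean against the lowest signal detected on the arrays of the 2i-derived samples. The median of the 10 genes was -0.11, and 5 of them had an unadjusted limma p under 0.05, against 20.9% of all genes tested.

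PRC2, the Polycomb complex that methylates histone H3, deposits the repressive mark H3K27me3 on Hox clusters. Of its 11 tested genes none was called, against 0.165% of all genes tested, and 5 lay above 0. At an unadjusted limma p under 0.05 there were 8 of the 11, against 20.9% of all genes tested. The groups did not overlap for 9 of the 11, against 55.7%. The core subunits had log2 differences of 0.52 for Ezh2, the methyltransferase, -0.56 for Eed and -0.05 for Suz12 (limma adjusted p = 0.101, 0.178 and 0.945). Rbbp7, which is X-linked, had 0.94, and Epop, which tempers PRC2 activity, had -1.14 (limma adjusted p = 0.0812 and 0.0851). Of 14 tested PRC1 genes none was called, with -0.50 for Cbx7, 0.34 for Pcgf6 and -0.66 for Pcgf2. Of 8 tested trithorax genes and H3K27 demethylases none was called, with 1.18 for the X-linked demethylase Kdm6a, -0.33 for Ash2l and -0.39 for Men1. Medians were -0.05 for PRC2, -0.04 for PRC1 and -0.14 for trithorax, against -0.02 over all genes tested. An unadjusted limma p under 0.05 was found for 3 of the 14 PRC1 genes and 3 of the 8 trithorax genes and demethylases.

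The TALE proteins, which bind DNA together with HOX proteins, were represented by 6 tested genes, of which none was called. Pknox1 had 0.45, Meis1 -0.47 and Pbx2 -0.58 (limma adjusted p = 0.151, 0.321 and 0.330), and their median was 0.04. Pbx4 read 7.34 in AFF204#21 and 5.27 in R1, wider than the gap of any Hox gene.

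Genes beside the clusters in the GRCm38.p6 annotation were compared as neighbours, taking all other genes inside each cluster and 6 protein-coding genes on each side. Of 47 neighbours on the array 32 were tested and none was called, with a median of -0.18 and 11 above 0. The noncoding transcripts Hoxaas2, 5730596B20Rik, Hoxa11os and Haglr, which lie inside HoxA and HoxD, were undetected in every sample. Evx1, a homeobox gene next to Hoxa13, was 8.41 in R1 against 7.17 to 7.40 in the other samples. The neighbours with the smallest p were Cdk5rap3 (-0.72), Cbx3 (0.41) and Atp5g1 (-0.35), at limma adjusted p = 0.0998, 0.103 and 0.120.

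The calls changed when a standard-derived line was left out. Without AFF204#21, Hoxa5 (-0.38), Hoxa7 (-0.48), Hoxb7 (-0.73) and Hoxc6 (-0.38) were called, at limma adjusted p = 0.0205, 0.0115, 0.000249 and 0.0153. They made up 22.2% of the 18 Hox genes, where 45.3% of all genes were called. That fit compares 2i-derived samples with R1 alone and takes its spread from 2i-RFP+ and 2i-RFP-. Without R1, 1 of the 18 was called (5.56%), where 36.6% of all genes were. Without 2i-RFP+ or without 2i-RFP- no Hox gene was called.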

How the data were processed

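Biotin-labelled RNA of 4 samples was measured on bead arrays (Illumina MouseWG-6 v2), as the labels and headers give it. Each deposited intensity averages the beads of a probe and is linear and unnormalized, exported from GenomeStudio 1.0.6, per the file headers. The detection p was taken as 1 minus the deposited detection score. The deposited standard deviation and number of beads gave the standard error of each intensity. Deposited log2 values, one per target name, served as an alternative. How the authors made them is not given in these sources. They correlate at r = 1.0000 with the mean over a target's probes of quantile-normalized log2 intensity.

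Background correction and quantile normalization used neqc (offset 16) in limma 3.58.1 under R 4.3.3, and arrays of a sample were averaged. A gene was represented by its detected probe of highest mean, and a probe was kept where its mean score was at least 0.95 in at least 2 samples, which left 14572 genes. The groups were compared with limma (lmFit, then eBayes with trend, two-sided), and p-values were adjusted by Benjamini-Hochberg over the whole table. Strain and passage were not in the fit, since they would leave the spread to the 2i-derived samples. Of 31490 target names, 13430 matched a current symbol and 5596 a unique synonym, and 25 that read as dates or numbers were left out. Per array 42.3% to 43.9% of probes were detected, which with the number of arrays limits the precision.

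Named genes are every Hox gene detected in at least 1 sample, up to 3 members of each other list by smallest p, and a fixed set of stem cell, feeder, Cdx and Polycomb genes. The values of 2 genes that the rule names are not reported here, though they stay in the fit and the counts. The members and lists were chosen with earlier results of these data known. Pbx4, Evx1 and the undetected genes named from other lists were picked after their values were seen. Alternatives concerned background correction, normalization, offset, detection filter, probe rule, the trend, the array used and each sample left out.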

Additional observations from a re-analysis of the deposited data

How the results depend on the processing

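No Hox gene was called under any planned or added alternative that kept all 4 samples. The number of all genes called, 24, was 0 without background correction, with median scaling, with detection in at least 1 sample, with a robust trend and with both 2i-derived samples counted as 1. At an unadjusted p under 0.05 limma gave 3029, 2982, 3049, 3035 and 803 genes there, against 3044. It was 12 with the authors' deposited log2 table, 48 with every detected probe on its own, and 41 with arrays B of the 2i-derived samples, a setting added after seeing the data. Leaving out 1 sample gave 0 to 6596 genes, 5335 of them without R1, and 0 to 4 Hox genes, since a fit without AFF204#21 or R1 takes its spread from the 2i-derived samples alone. The lone sample is assumed to vary like the other group. The calls in each list then ranged from 0 to 9 (PRC2), 8 (PRC1), 5 (trithorax), 4 (TALE), 2 (ParaHox), 8 (retinoic acid), 9 (posterior axis), 5 (stem cell), 15 (feeder), 3 (endoderm), 1 (mesoderm), 1 (neural) and 18 (neighbours). The Hox median of -0.117 was -0.032 with no detection filter, which adds undetected genes, and -0.295 to -0.028 with 1 sample left out. At a score of 0.99, 12 Hox probes were detected in 2i-RFP-. The differences of some genes changed sign. That of Hoxb7 did so in 1 setting, without R1, and causes were not tested. Hoxa13 was 0.012 with median scaling, 0.062 with the authors' deposited table and 0.094 with arrays B, Hoxc10 was 0.047 with the authors' deposited table, Hoxd10 -0.023 with arrays A and Hoxb4 -0.047 with arrays B. With 1 sample left out the differences ran from -0.427 to 0.212 for Hoxa2, -0.092 to 0.031 for Hoxa13, -0.213 to 0.214 for Hoxb4, -0.336 to 0.079 for Hoxb6, -0.726 to 0.025 for Hoxb7 and -0.096 to 0.266 for Hoxb9. They ran from -0.413 to 0.244 for Hoxc9, -0.382 to 0.127 for Hoxc6, -0.256 to 0.042 for Hoxc10, -0.212 to 0.360 for Hoxc13 and -0.088 to 0.179 for Hoxd10. No paired analysis was possible because the labels give no replicate numbers. Signal over background limits the 21 undetected genes, for which no fold is given.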
